A study of Sus scrofa with 12 samples.

Results

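The genes described here encode the contractile apparatus of muscle and the proteins that set the speed of a muscle fibre. They were taken from the whole-genome count tables by symbol, as members of the myosin heavy and light chain, myosin-binding protein, troponin, tropomyosin, alpha-actin, alpha-actinin, myozenin, myomesin, PDZ and LIM domain, capping protein, tropomodulin, leiomodin, calsequestrin and sarcoplasmic reticulum calcium pump families. Of 20741 features, 10349 had a symbol, and 51 of these were members. By textbook fibre type, 6 are slow forms, 11 are fast forms and 11 are shared by all striated fibres. A further 9 are developmental or cardiac forms and 14 are smooth muscle or non-muscle forms.

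Muscle RNA came from 6 pigs labelled high drip, aged 167 to 186 days, and 6 labelled low drip, aged 172 to 189 days, each with 3 females and 3 males. Drip loss is the fluid that meat releases after slaughter, and the study set animals of high loss against animals of low loss. Replicates 1 to 3 of each group are the females and replicates 4 to 6 the males, and each replicate is 1 animal with 1 library. The labels name neither the muscle nor the breed, so the muscle's own fibre makeup is not given, and no genotype or treatment separates the groups.

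A sarcomere shortens when myosin in the thick filament pulls on actin in the thin filament. Calcium binding to troponin C moves tropomyosin off the myosin-binding sites of actin, and the calcium pump of the sarcoplasmic reticulum ends the contraction by taking calcium back up. Slow, oxidative fibres and fast, glycolytic fibres carry different genes for the same parts, so that slow and fast troponin C, light chains or myosin-binding protein C can be read side by side in 1 library. In pig muscle, fast glycolytic fibres are the ones whose quick fall in pH after slaughter is commonly linked to loss of water.

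The tables recorded for 3 females bear the number of another animal: low drip replicate 1, high drip replicate 2 and low drip replicate 2. Tables were assigned by number. Each animal's separate table for selected chromosome regions then shared 737 to 745 identical counts of 770 with the whole-genome table of its number, and at most 167 with that of any other animal. No member lies in the region tables. Results resting on these 3 animals are also given for the 9 animals whose recorded table bears their own number (5 high drip, 4 low drip), where a direction or call differs.

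Each library held 8009627 to 12622043 counts assigned to features. Of the skeletal muscle markers, 5 of 12 had an ID under the symbol listed. Their summed level was 97731 to 145134 CPM in high drip animals and 103832 to 147347 CPM in low drip animals. MYL11, listed there by its other name MYLPF, was measured but is not in this sum. CPM are counts scaled to the size of the library. PYGM, the muscle glycogen phosphorylase, was at 15879 CPM or more in every library. The liver markers, 20 of 25 with an ID, summed to 113 to 719 CPM in high drip animals and 73.1 to 259 CPM in low drip animals. Of these, ALB, serum albumin, was at 26.9 CPM or more in 6 libraries, including all 3 high drip females and no low drip female, and at most 2.34 CPM in the other 6. Smooth muscle and pericyte markers, 8 of 10 with an ID, summed to 185 to 303 CPM in high drip animals and 184 to 261 CPM in low drip animals. Fibroblast markers, 7 of 8 with an ID, summed to 2971 to 5648 CPM in high drip animals and 3551 to 4821 CPM in low drip animals. Markers of satellite cells and myoblasts, 6 of 8 with an ID, summed to 5623 to 8302 CPM in high drip animals and 6163 to 9353 CPM in low drip animals. DES made up most of that sum, at 5561 to 8238 CPM in high drip animals and 6120 to 9244 CPM in low drip animals. MYF5, MYOD1, CDH15, NCAM1 and CALCR were each at no more than 76.5 CPM in any animal, so the sum is not a measure of these cells. In bulk muscle, fewer fibres of a type and less RNA per fibre cannot be told apart.

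Sarcomere and fibre type genes took 28.6% to 31.5% of all assigned counts. Their share was 30.2% ± 0.671 in high drip animals and 29.6% ± 1.08 in low drip animals (mean ± SD, n = 6 each). Fast forms took 14.8% ± 0.699 in high drip animals and 14.3% ± 0.547 in low drip animals, and slow forms 1.24% ± 0.153 in high drip animals and 1.23% ± 0.133 in low drip animals. ACTA1, the skeletal alpha-actin of the thin filament, was alone 7.58% ± 0.871 of counts in high drip animals and 7.16% ± 0.662 in low drip animals. These shares are not scaled to gene length, and the ranges of the groups overlapped for each. In all, 8 of the 14 slow and 7 of the 18 fast forms listed were matched to no ID and are not analysed here. Among them are MYH7, MYH2, MYH1, MYH4, MYL2, TNNI1, TNNI2, TNNT3, TPM3, ATP2A2 and CASQ2. The shares of slow and fast forms are therefore sums over some of the genes of each kind.

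All levels below are CPM after scaling between libraries, given as the lowest, median and highest of 6 animals. Levels are compared between animals, not between genes, because no gene length was at hand. Among the slow forms, TNNC1 encodes the troponin C of slow and cardiac muscle. It lay at 3145, 3758 and 4478 CPM in high drip animals, against 3192, 3576 and 4413 CPM in low drip animals. TNNT1, the slow troponin T that ties the complex to tropomyosin, lay at 2695, 3436 and 3942 CPM in high drip animals, against 2643, 2901 and 4299 CPM in low drip animals. For TNNC1 the ranges of the groups nearly coincided, and the low drip range of TNNT1 enclosed the high drip range.

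MYL3, the essential light chain of slow and ventricular myosin, lay at 1386, 1750 and 2289 CPM in high drip animals, against 1034, 1504 and 1920 CPM in low drip animals. Low drip replicates 4 and 6, at 1049 and 1034 CPM, were the lowest of all 12. MYH7B, a slow-type myosin heavy chain, lay at 55.9, 106 and 142 CPM in high drip animals, against 60.9, 64.4 and 168 CPM in low drip animals. Its low drip values fell apart into 4 animals at 60.9 to 64.9 CPM and 2 at 113 and 168 CPM, so the low drip group held the highest animal although its median was lower. MYBPC1, the slow myosin-binding protein C that trims the pull of the thick filament, lay at 2787, 3357 and 4098 CPM in high drip animals, against 2961, 4018 and 4809 CPM in low drip animals. PDLIM1, an adaptor that binds alpha-actinin at the Z-disc, lay at 63.8, 77.9 and 166 CPM in high drip animals, against 55.7, 96.2 and 118 CPM in low drip animals. High drip replicate 4 carried its highest value, with the other high drip animals at 116 CPM or less. MYBPC1 and PDLIM1 were the slow forms with the lower median in high drip animals, and the ranges of all 6 slow forms overlapped.

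**Figure D1:**
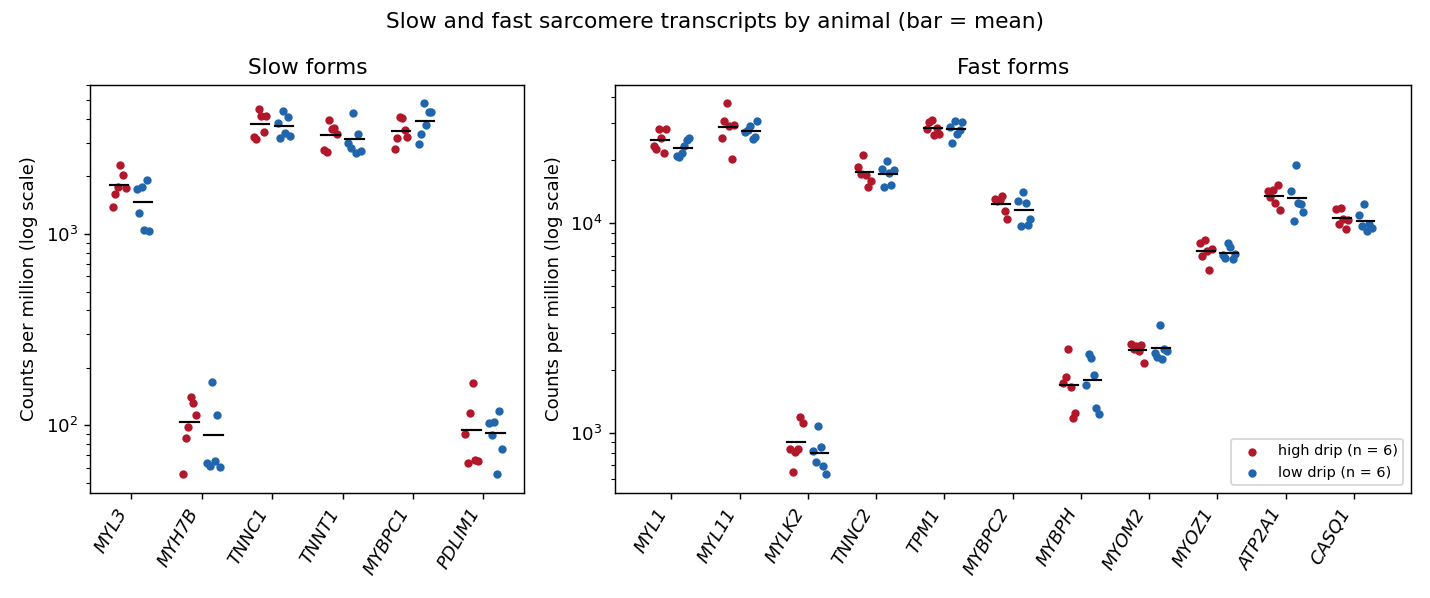
Level of the 6 slow (left) and 11 fast (right) forms in each animal, in CPM on a log axis, with high drip animals left of low drip animals and a bar at the group mean. The groups overlapped for every gene, and MYH7B (55.9 to 168 CPM) and PDLIM1 (55.7 to 166 CPM) spanned the widest range.

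The fast forms of the thin filament were steady from animal to animal. TNNC2, the fast troponin C, lay at 14942, 17174 and 21261 CPM in high drip animals, against 14844, 17632 and 19783 CPM in low drip animals. TPM1, whose tropomyosin is the main form of fast fibres, lay at 26483, 28285 and 31185 CPM in high drip animals, against 24108, 28393 and 30888 CPM in low drip animals. TPM1 had the narrowest spread of the fast forms, a highest animal 1.29-fold above the lowest over all 12.

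On the thick filament, MYL1, the essential light chain of fast myosin, lay at 21611, 24338 and 28168 CPM in high drip animals, against 20636, 22527 and 25422 CPM in low drip animals. MYL11, the fast regulatory light chain (also written MYLPF), lay at 20363, 29344 and 37328 CPM in high drip animals, against 25267, 27517 and 30904 CPM in low drip animals. The high drip range of MYL11 enclosed the whole low drip range. MYLK2, the skeletal kinase that phosphorylates that light chain, lay at 645, 836 and 1186 CPM in high drip animals, against 633, 769 and 1076 CPM in low drip animals. MYBPC2, the fast myosin-binding protein C, lay at 10493, 12828 and 13563 CPM in high drip animals, against 9691, 11436 and 14133 CPM in low drip animals. For MYLK2 and MYBPC2 the high drip median was the higher one, within ranges that overlapped almost wholly. MYBPH, a related protein of the thick filament found mainly in fast fibres, lay at 1176, 1679 and 2519 CPM in high drip animals, against 1221, 1781 and 2365 CPM in low drip animals. It had the widest range of the fast forms, 2.14-fold between the lowest and highest animals.

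In the M-band and Z-disc, which hold the thick and the thin filaments in register, MYOM2 and MYOZ1 are the fast forms. MYOM2, a myomesin, lay at 2144, 2544 and 2637 CPM in high drip animals, against 2247, 2417 and 3275 CPM in low drip animals. MYOZ1, a calsarcin that binds alpha-actinin and calcineurin, lay at 5960, 7444 and 8335 CPM in high drip animals, against 6734, 7093 and 8087 CPM in low drip animals. The lowest and the highest of the 12 animals for MYOZ1 were both high drip, so the high drip range enclosed the low drip range.

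Of the fast calcium store, ATP2A1, the calcium pump SERCA1, lay at 11504, 13764 and 15164 CPM in high drip animals, against 10260, 12398 and 18996 CPM in low drip animals. CASQ1, the calcium buffer calsequestrin of fast fibres, lay at 9428, 10455 and 11844 CPM in high drip animals, against 9166, 9800 and 12415 CPM in low drip animals. In both genes the single highest value of the 12 was that of a low drip female, low drip replicate 3.

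The other members were read by class. Among the 11 shared forms, ACTA1 ranged from 57518 to 87497 CPM in high drip animals and from 64250 to 90527 CPM in low drip animals. TPM2, the beta-tropomyosin, ranged from 5726 to 12353 CPM in high drip animals and from 7659 to 13219 CPM in low drip animals. PDLIM3, an actinin-binding Z-disc protein, ranged from 3334 to 4679 CPM in high drip animals and from 3239 to 4776 CPM in low drip animals. Each of these ranges overlapped between the groups. The M-band protein MYOM1 (1683 to 2418 CPM over the 12 animals), the thin filament cap TMOD4 (1809 to 2623 CPM) and the Z-disc protein PDLIM5 (281 to 411 CPM) each spanned less than 1.5-fold.

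Counts under the symbols of 4 sarcomeric myosin heavy chains of the developmental and cardiac class were high. MYH8 ranged from 23816 to 29662 CPM in high drip animals and from 23623 to 31031 CPM in low drip animals. MYH6 ranged from 8481 to 15044 CPM in high drip animals and from 9248 to 17261 CPM in low drip animals. As background, MYH8 and MYH3 are the perinatal and embryonic chains, MYH6 the atrial chain and MYH13 the extraocular chain. MYH13 ranged from 2884 to 4947 CPM in high drip animals and from 3246 to 4847 CPM in low drip animals, and MYH3 from 224 to 331 CPM in high drip animals and from 153 to 333 CPM in low drip animals. Of the 8 cardiac markers listed, 3 had an ID: MYH6, NPPB (at most 0.0895 CPM) and MYBPC3 (at most 1.18 CPM). The other 5 cardiac markers were not measured here. ACTC1, the cardiac alpha-actin, which is also made in skeletal muscle, was at 22.6 to 58.7 CPM in high drip animals and 17.3 to 108.7 CPM in low drip animals. The myosin heavy chain genes are related in sequence, and alignments that were not unique (12.8% to 15.5% of a table) were given to no feature. The symbols MYH7, MYH2, MYH1 and MYH4 were matched to no ID. Whether the features under these 4 symbols hold the named chains was not tested, so their levels are uncertain and are not evidence of the named chain.

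Smooth muscle and non-muscle forms took 0.0389% to 0.0527% of counts. ACTN4, a non-muscle alpha-actinin, ranged from 118 to 144 CPM in high drip animals and from 108 to 167 CPM in low drip animals. MYH9, a non-muscle myosin heavy chain, ranged from 76.3 to 121 CPM in high drip animals and from 81.6 to 166 CPM in low drip animals. ACTA2, the smooth muscle alpha-actin, ranged from 52.0 to 94.1 CPM in high drip animals and from 41.2 to 104 CPM in low drip animals. These ranges overlapped too. TPM4 (30.2 to 71.4 CPM over the 12 animals), MYL12A (40.0 to 56.2 CPM), MYH14 (17.8 to 37.1 CPM), TMOD3 (4.15 to 9.08 CPM) and MYLK (2.60 to 5.21 CPM) made up the rest of the tested forms of this class, with ATP2A3 and PDLIM4. A filter on low counts was passed by 43 of the 51 members. The 8 that failed it were MYBPC3, MYBPHL, MYL4, MYL5, CAPZA3, MYL10, PDLIM2 and TMOD2, which had at most 39 counts in any library. CAPZA3, the testis form of the capping protein, had no count in any library, which allows up to 3 counts, or 0.375 CPM in the shallowest one.

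In these animals the slow forms had a wider spread than the fast forms. The median SD of log2 CPM over the 12 animals was 0.30 for the 6 slow forms (0.20 to 0.55), 0.16 for the 11 fast forms (0.11 to 0.38), 0.20 for the shared forms and 0.29 over all 10093 features that passed the filter. This is a description with no test. The slow forms of the widest spread, MYH7B and PDLIM1, also had the fewest counts of the slow and fast forms. MYH7B had 512 to 1542 counts in a library and PDLIM1 547 to 1805. The part of counting error in their spread was not tested.

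Low drip replicate 3, a female, often held an extreme value among these genes. It was the highest of the 12 animals in 13 of the 43 tested members, among them ATP2A1, CASQ1, MYBPC2 and MYOM2 of the fast forms and MYBPC1, MYH7B and TNNT1 of the slow forms. It was the lowest in 4. Such counts were not made over all features, so this trait is not shown to be particular to these genes. The library of low drip replicate 3 also had the fewest features with a count, 13183, and the largest share of alignments not unique, 15.5%. Over all features, 642 of 10249 had an edgeR unadjusted p under 0.05 for drip without this animal, against 361 of 10093 with all 12. High drip replicate 3, also a female, was the highest in 7 members, 5 of them fast. Low drip replicate 2, at the other end, was the lowest in 8 members, 5 of them fast and none slow. Without low drip replicate 3, the high minus low log2 fold was 0.54 for MYH7B, 0.20 for TNNT1, 0.15 for ATP2A1 and -0.07 for MYBPC1, against 0.20, 0.08, 0.03 and -0.17 with all 12 animals.

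Over the 12 animals, Pearson's r of log2 CPM was positive in all 15 pairs of slow forms, with a median of 0.561 (0.0969 to 0.857). It was positive in 45 of 55 pairs of fast forms, with a median of 0.429 (-0.408 to 0.862), and in 56 of 66 pairs of a slow and a fast form, with a median of 0.250 (-0.179 to 0.620). All pairs share the same libraries and scaling. Between a slow and a fast form r was more often above than below 0. The genes of each class are not independent of each other, so the medians are a description.

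Of the 136 pairs of slow and fast forms, 4 passed a permutation test of Pearson's r after adjustment over those pairs, each with an adjusted p of 0.0464. By Spearman's rho 0 of 136 passed, with a smallest adjusted p of 0.0867. MYH7B and TNNT1 had r = 0.857 (permutation p = 0.000745) and rho = 0.748 (permutation p = 0.00728, adjusted 0.190), and r was 0.785 without the 2 animals farthest from the median of MYH7B. TNNC1 and TNNT1, 2 subunits of the slow troponin complex, had r = 0.852 (permutation p = 0.00101) and rho = 0.818 (permutation p = 0.00186, adjusted 0.0867), and r was 0.746 without the 2 farthest animals. Within the drip groups, r of MYH7B and TNNT1 was 0.691 for high drip and 0.959 for low drip. For TNNC1 and TNNT1 it was 0.819 for high drip and 0.918 for low drip. By sex, r of MYH7B and TNNT1 was 0.850 in females and 0.990 in males, and that of TNNC1 and TNNT1 was 0.956 in females and 0.641 in males. Such splits hold the same animals that picked out the pairs, so here and below they are a description with no test.

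The fast pairs were ATP2A1 with MYOM2 and MYOZ1 with TNNC2. ATP2A1 and MYOM2 had r = 0.862 (permutation p = 0.00112) and rho = 0.727 (permutation p = 0.00953, adjusted 0.190). Low drip replicate 3 was the highest animal for both genes, and r was 0.672 without the 2 animals farthest from the median of ATP2A1. Within groups it was 0.914 for high drip and 0.863 for low drip, and by sex 0.904 in females and 0.634 in males. MYOZ1 and TNNC2 had r = 0.811 (permutation p = 0.00136) and rho = 0.811 (permutation p = 0.00224, adjusted 0.0867). Their r was 0.700 without the 2 farthest animals, 0.832 for high drip, 0.811 for low drip, 0.859 in females and 0.716 in males. Over the 6 libraries with ALB above 10 CPM and then the 6 below it, r was 0.733 and 0.951 for MYH7B and TNNT1, 0.985 and 0.731 for TNNC1 and TNNT1, 0.888 and 0.906 for ATP2A1 and MYOM2, and 0.889 and 0.743 for MYOZ1 and TNNC2. The adjusted p lay close to the threshold. With the 9 animals alone r was 0.884 for MYH7B and TNNT1, 0.832 for TNNC1 and TNNT1, 0.904 for ATP2A1 and MYOM2 and 0.849 for MYOZ1 and TNNC2, and 0 pairs passed. Leaving out 1 animal left 0 or 1 pairs past the threshold, except that 4 passed without low drip replicate 1. Of those 4, MYH7B with TNNT1, ATP2A1 with MYOM2 and MYOZ1 with TNNC2 were shared with the full set, TNNC1 with TNNT1 was lost (adjusted permutation p = 0.0715), and MYH7B with MYL3 was gained (adjusted permutation p = 0.0408).

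**Figure D2:**
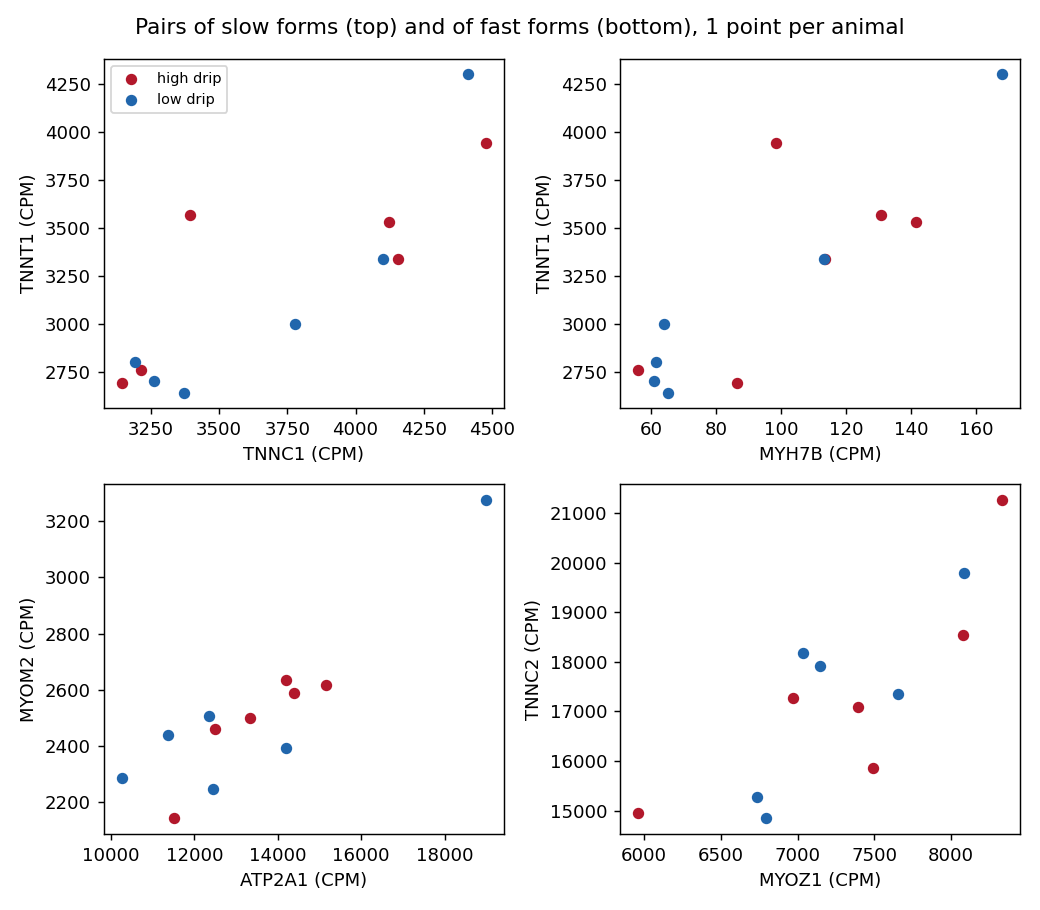
Levels in CPM of the 2 slow pairs (top) and the 2 fast pairs (bottom), with 1 point for each of 6 high drip and 6 low drip animals. Points rise together in each panel, with r from 0.811 to 0.862, and the upper right point for ATP2A1 and MYOM2 is low drip replicate 3.

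The paralogues that do the same job in slow and fast fibres did not follow each other closely. The pair r was 0.366 for TNNC1 and TNNC2 (permutation p = 0.242, rho 0.329 with p = 0.297), 0.0186 for MYBPC1 and MYBPC2 (p = 0.953, rho -0.00699 with p = 0.991) and 0.104 for MYL3 and MYL1 (p = 0.748, rho 0.0839 with p = 0.801). Adjusted over the 136 pairs, the p of r was 0.539, 0.967 and 0.870. Without the 2 farthest animals r was -0.0149, 0.133 and -0.0483. By sex, r of TNNC1 and TNNC2 was 0.794 in females and -0.347 in males. In the same order it was 0.318 and -0.108 for MYBPC1 and MYBPC2, and 0.332 and 0.00385 for MYL3 and MYL1. In libraries with ALB above 10 CPM and then those below it, r of the 3 pairs was 0.145 and 0.665, -0.551 and 0.597, and 0.169 and 0.0147. These splits are a description with no test. Over all 903 pairs of tested members none passed, with a smallest adjusted p of 0.184 for MYH6 and TNNT1 (r = 0.876, rho = 0.881, permutation p = 0.000205 for r). Counts under the symbol MYH6 had a median r of 0.609 with the 6 slow forms and 0.257 with the 11 fast forms, a pattern picked out after the values were seen. The caution on myosin heavy chain symbols applies to it.

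**Figure D3:**
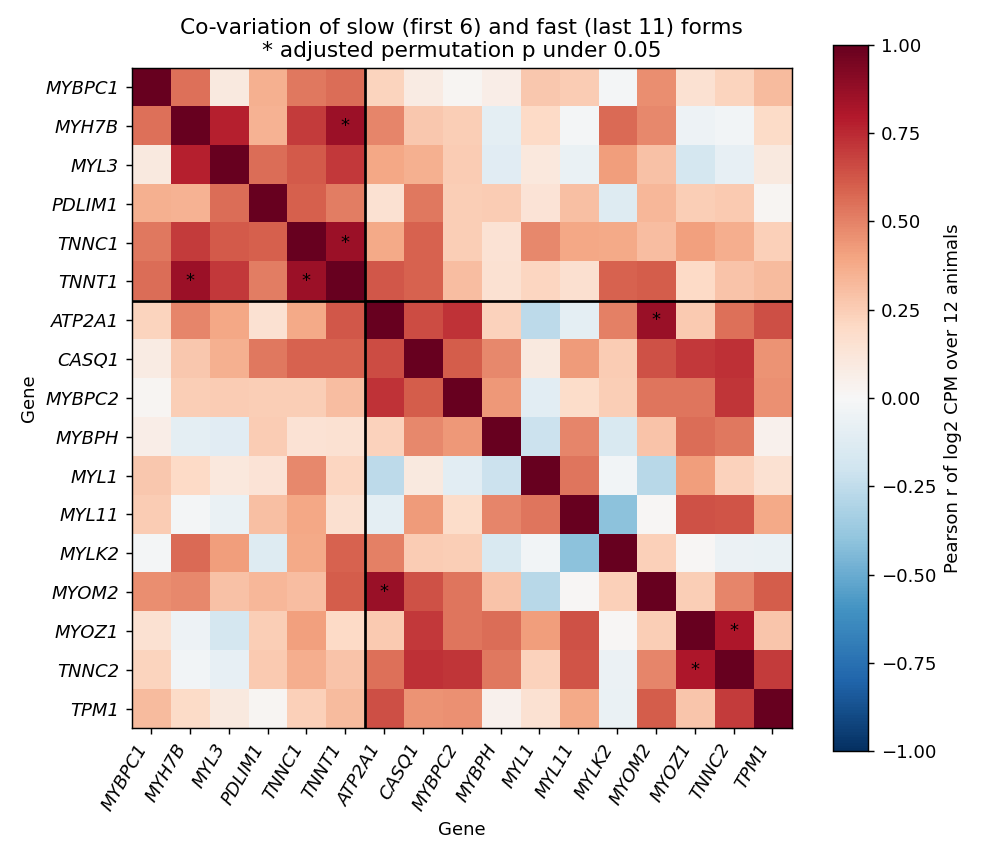
Pearson's r of log2 CPM over 12 animals for each pair of the 6 slow and 11 fast forms, with colour from -1 to 1. Pairs within the slow block are all positive (0.0969 to 0.857), and pairs between blocks run from -0.179 to 0.620.

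The ratio of a slow form to its fast paralogue within a library does not depend on depth, and it was computed for 3 pairs chosen after the values were seen. Counts are not scaled to gene length, so the ratio can be compared between animals only. The ratio of TNNC1 to TNNC2 was 0.216 ± 0.0342 in high drip animals and 0.215 ± 0.0299 in low drip animals (mean ± SD, n = 6 each, exact two-sided permutation p = 0.987 over 924 regroupings). The ratio of MYBPC1 to MYBPC2 was 0.282 ± 0.0413 in high drip animals and 0.345 ± 0.0762 in low drip animals (exact permutation p = 0.117, adjusted over the 3 ratios 0.351). In the 9 animals it was 0.289 ± 0.0423 in high drip animals and 0.374 ± 0.0661 in low drip animals (exact permutation p = 0.0476 over 126 regroupings, adjusted 0.143). The 3 animals left out are females, more of them low drip than high drip, so the sexes are not balanced among the 9. The regroupings took no account of sex, and in the 9 animals the log2 of this ratio was 0.249 higher in males than in females. Drip and sex are therefore mixed in that p. The ratio of MYL3 to MYL1 was 0.0732 ± 0.0150 in high drip animals and 0.0648 ± 0.0187 in low drip animals (exact permutation p = 0.355, adjusted 0.532). None of the 3 differences passed the test after adjustment.

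By animal, the MYBPC1 to MYBPC2 ratio was 0.215, 0.248, 0.319, 0.298, 0.307 and 0.305 in high drip replicates 1 to 6, against 0.233, 0.342, 0.340, 0.298, 0.442 and 0.414 in low drip replicates 1 to 6. All 6 high drip animals were at 0.319 or below, and 4 of the 6 low drip animals were above that. Males and females did not differ past the threshold either, with exact permutation p of 0.149 for TNNC1 to TNNC2, 0.0909 for MYBPC1 to MYBPC2 and 0.654 for MYL3 to MYL1.

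**Figure D4:**
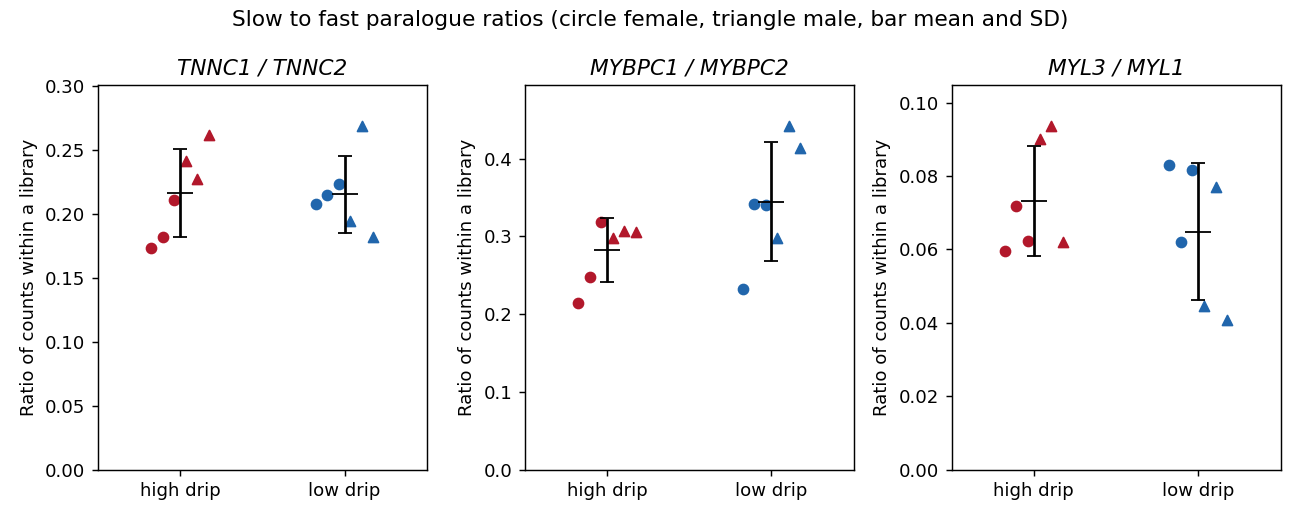
Ratio of counts of a slow form to its fast paralogue within each library, for 6 high drip (left) and 6 low drip (right) animals, with circles for females, triangles for males and bars for the mean and SD. The groups overlap in each panel, and the MYBPC1 to MYBPC2 ratio averaged 0.282 in high drip animals and 0.345 in low drip animals.

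No sarcomere or fibre type gene passed the drip contrast. Of the 10093 features tested with edgeR's quasi-likelihood test, 0 (0%) were called at an adjusted p under 0.05, and 0 of 43 members were. At an unadjusted p under 0.05, 361 features (3.58%) and 1 member passed. DESeq2 and limma voom called 0 features as well. The 43 members had a median log2 fold, high minus low drip, of 0.02, against 0.00 over all features, and every member's adjusted p was 0.999. Median folds were 0.07 for slow, 0.03 for fast, -0.05 for shared, -0.01 for developmental or cardiac and -0.01 for smooth or non-muscle forms. The fold was positive in 5 of 6 slow and 9 of 11 fast forms. These medians were small enough to turn with 1 animal: that of the fast forms was -0.00963 without low drip replicate 2, and that of the slow forms -0.00104 without high drip replicate 3.

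The 95% intervals of the folds limit the size of a drip difference that these animals leave room for. Over the 11 fast forms they ran from 0.758-fold to 1.42-fold, and over the 6 slow forms from 0.721-fold to 1.75-fold. The 1 member under 0.05 before adjustment was CAPZB, the beta subunit of the protein that caps actin filaments at the Z-disc. It was at 253, 242, 251, 259, 236 and 199.6 CPM in high drip replicates 1 to 6, against 205, 203, 203, 187, 229 and 198 CPM in low drip replicates 1 to 6. In CAPZB, 5 of the 6 high drip animals were above every low drip animal, and the sixth lay among them. Its log2 fold was 0.23 ± 0.09 (SE, 95% interval 0.04 to 0.42, unadjusted p = 0.0190). In the 9 animals the fold of CAPZB was 0.22 ± 0.11 (interval -0.03 to 0.47, edgeR unadjusted p = 0.0802), with tables as recorded 0.15 ± 0.10 (unadjusted p = 0.158) and with the ALB split as a term 0.18 ± 0.09 (unadjusted p = 0.0580), so it was not under 0.05 in these fits. The share of members under 0.05 before adjustment was 2.33%, close to the 3.58% over all features.

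ACTN2, the alpha-actinin that cross-links actin at the Z-disc, had the next smallest p, with 2961, 3384 and 4733 CPM in high drip animals, against 3413, 4421 and 5607 CPM in low drip animals. Its log2 fold was -0.30 ± 0.15 (edgeR unadjusted p = 0.0650). LMOD2, a leiomodin that lengthens thin filaments, lay at 345, 717 and 877 CPM in high drip animals, against 527, 902 and 915 CPM in low drip animals, with a fold of -0.28 ± 0.23 (edgeR unadjusted p = 0.249). Without high drip replicate 6 the fold of LMOD2 was -0.15, and without high drip replicate 4 it was -0.43. ACTN2 and LMOD2 had lower medians in high drip animals, with overlapping ranges. The other members among the 10 smallest p were PDLIM4 (-0.31 ± 0.17), MYL3 (0.30 ± 0.18), MYH15 (-0.57 ± 0.37), ATP2A3 (0.23 ± 0.17), MYH3 (0.23 ± 0.18), MYBPC1 (-0.17 ± 0.13) and MYL1 (0.13 ± 0.11). PDLIM4 and MYH15 were low throughout, at no more than 8.57 and 3.31 CPM in any animal, and ATP2A3, a calcium pump of non-muscle cells, was at no more than 5.54 CPM.

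Among the remaining slow forms the log2 fold was 0.20 ± 0.28 for MYH7B, 0.08 ± 0.14 for TNNT1, 0.06 ± 0.25 for PDLIM1 and 0.02 ± 0.13 for TNNC1. Among the remaining fast forms it was 0.16 ± 0.16 for MYLK2, 0.10 ± 0.12 for MYBPC2, 0.05 ± 0.13 for MYL11 and 0.05 ± 0.10 for CASQ1. It was 0.03 ± 0.14 for ATP2A1, 0.02 ± 0.10 for each of MYOZ1 and TPM1, 0.02 ± 0.11 for TNNC2, -0.02 ± 0.10 for MYOM2 and -0.09 ± 0.15 for MYBPH. Each of these differences was smaller than its standard error or little larger, and the sign of ATP2A1, MYOZ1, TNNC2 and TPM1 was the opposite in the 9 animals. Fitted in each sex alone, the fold of MYH7B was 0.69 in males and -0.28 in females, that of MYLK2 0.52 in males and -0.19 in females, and that of TNNT1 0.26 in males and -0.10 in females. These genes were picked out after their values were seen. The difference of the fold between the sexes had edgeR unadjusted p of 0.0768, 0.0193 and 0.200, and none passed adjustment. In males alone the fold was negative for TNNC2 (-0.0817), TPM1 (-0.0607), MYL11 (-0.0545) and MYOZ1 (-0.0508). All 3 high drip females and 0 low drip females had ALB above 10 CPM, so drip and ALB cannot be told apart in females. With the split into libraries with and without ALB above 10 CPM as a term of the fit, 0 features were called for drip.

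**Figure D5:**
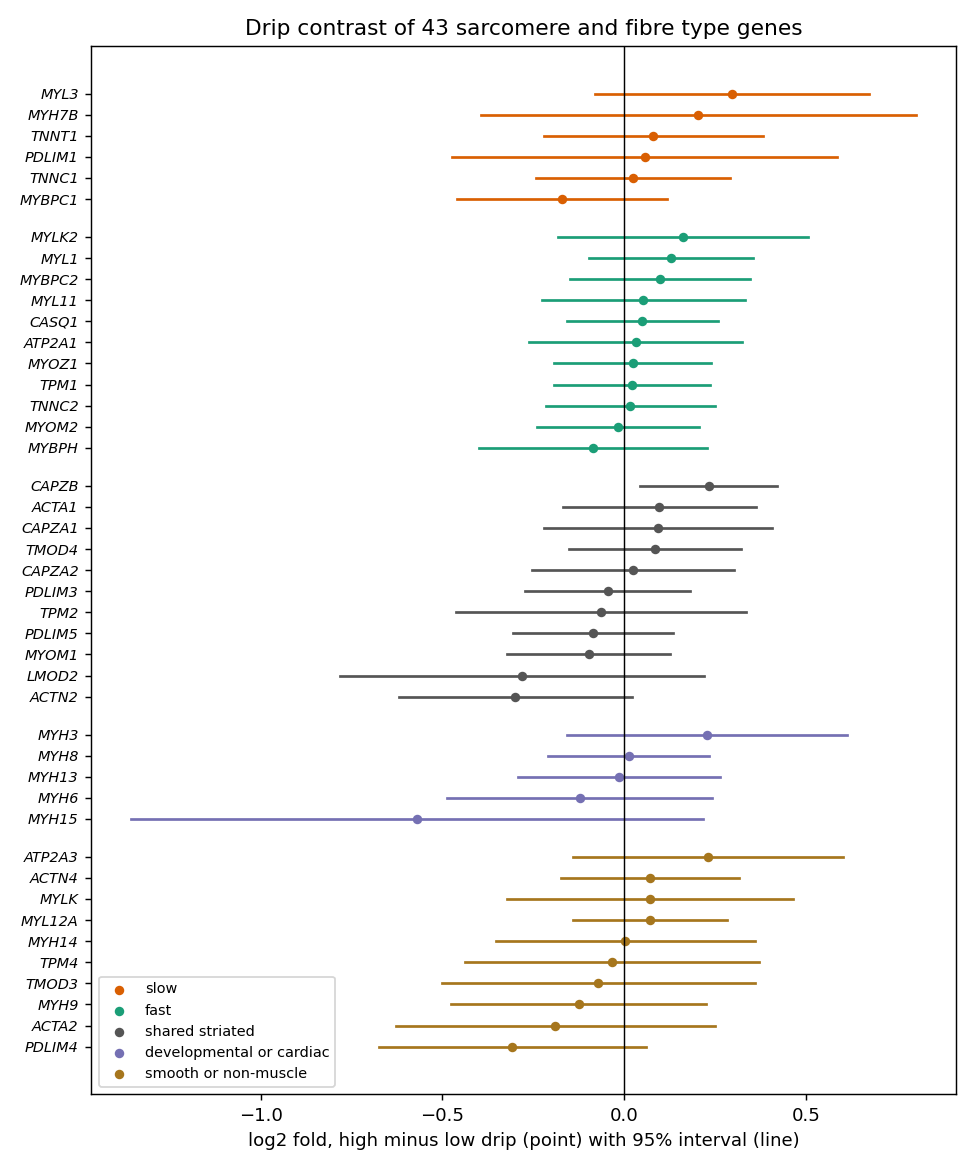
log2 fold of high over low drip (point) with its 95% interval (line) for the 43 tested members, grouped by class. With all 12 animals the interval crosses 0 for every member except CAPZB (0.04 to 0.42), whose interval in the 9 animals was -0.03 to 0.47.

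The sexes were compared in the same fit. Of 10093 features, 0 (0%) were called, and 674 (6.68%) had an unadjusted p under 0.05, among them 2 of the 43 members. MYBPH was at 1643, 1176, 1240, 1881, 1311 and 1221 CPM in the males (high drip replicates 4 to 6, then low drip replicates 4 to 6), against 1716, 1852, 2519, 1680, 2365 and 2259 CPM in the females in the same order of groups. In MYBPH, 5 of the 6 males were below every female. Its log2 fold, male minus female, was -0.55 ± 0.15 (edgeR unadjusted p = 0.00213, adjusted p = 0.590). CAPZA2, an alpha subunit of the capping protein, averaged 218 ± 30.2 CPM in males and 178 ± 28.4 CPM in females (log2 fold 0.29 ± 0.13, edgeR unadjusted p = 0.0396, adjusted p = 0.744).

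CAPZA1, the other alpha subunit, averaged 25.5 ± 3.32 CPM in males and 21.2 ± 4.23 CPM in females, with a fold of 0.27 ± 0.15. CASQ1 averaged 9826 ± 546 CPM in males and 11080 ± 1098 CPM in females, with a fold of -0.17 ± 0.10. Counts under MYH13 averaged 3572 ± 675 CPM in males and 4182 ± 477 CPM in females, with a fold of -0.23 ± 0.13. The fold was negative in 9 of 11 fast forms (median -0.14) and in 2 of 6 slow forms (median 0.03), against a median of 0.00 over all features. None of the members passed.

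The difference of the drip contrast between the sexes was tested as the product term of sex and drip. It was called in 0 (0%) of 10093 features, and 345 (3.42%) had an unadjusted p under 0.05, among them 3 of the 43 members. MYLK2 averaged 1043 ± 182 CPM in high drip males and 728 ± 114 CPM in low drip males, but 761 ± 102 CPM in high drip females and 871 ± 184 CPM in low drip females (n = 3 each). Its product term was 0.71 ± 0.27 on the log2 scale (edgeR unadjusted p = 0.0193, adjusted p = 1.00). TPM2 averaged 8669 ± 2894 CPM in high drip males and 11838 ± 1327 CPM in low drip males, but 11589 ± 1110 CPM in high drip females and 9270 ± 1801 CPM in low drip females, a term of -0.77 ± 0.32. MYH13 had a term of -0.51 ± 0.23, ACTN4 of 0.43 ± 0.21 and PDLIM4 of 0.64 ± 0.31. The term was positive in 5 of 6 slow forms, with a median of 0.38, against 0.01 over all features, and 0 slow forms were under 0.05 before adjustment. For the slow forms TNNT1 and MYL3, picked out after their values were seen, high drip males averaged 3480 ± 122 and 2019 ± 271 CPM against 2895 ± 386 and 1334 ± 508 CPM in low drip males. The same genes averaged 3133 ± 701 and 1586 ± 186 CPM in high drip females, against 3367 ± 814 and 1589 ± 268 CPM in low drip females.

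Other genes of the sarcomere and of fibre type control, such as Z-disc partners, fibre type transcription factors and metabolic fibre type markers, were listed apart from the members. Of 59 listed, 40 had an ID and were tested. 0 of the 40 were called for drip, and 1 (2.5%) had an unadjusted p under 0.05, against 3.58% of all features. The fold was positive in 14 and negative in 26, with a median of -0.11. Over all features it was positive in 5165 and negative in 4928, with a median of 0.00. SYNPO2L, an actin-associated protein of the Z-disc, was at 358, 344, 462, 288, 299 and 283 CPM in high drip replicates 1 to 6, against 492, 477, 431, 369, 410 and 467 CPM in low drip replicates 1 to 6. In SYNPO2L 5 of 6 high drip animals were below every low drip animal, and the fold was -0.39 ± 0.10 (edgeR unadjusted p = 0.00180, adjusted p = 0.999).

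TRIM63, a ubiquitin ligase of the thick filament and M-band, averaged 649 ± 203 CPM in high drip animals and 911 ± 276 CPM in low drip animals (fold -0.49 ± 0.23). CA3, the carbonic anhydrase of slow fibres, averaged 5891 ± 1640 CPM in high drip animals and 7668 ± 1619 CPM in low drip animals (fold -0.36 ± 0.18). ANKRD23, which binds titin, averaged 1806 ± 187 CPM in high drip animals and 2112 ± 374 CPM in low drip animals (fold -0.22 ± 0.12). SIX4, a transcription factor of the fast fibre programme, averaged 12.1 ± 2.96 CPM in high drip animals and 9.24 ± 4.72 CPM in low drip animals (fold 0.40 ± 0.25). The groups overlapped for each of these 4 genes.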

How the data were processed

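RNA of 12 pig muscles was sequenced on the Illumina GAIIx from TruSeq libraries, per the labels. Per the submitters' processing notes, the authors used TopHat2 2.0.3, Bowtie 0.12.7.0, HTSeq and the build Sscrofa10.2. Parameters, strand setting and annotation release are not given in the sources used here. The deposited values are raw counts per feature, and the rows that name no feature (24.2% to 29.3% of a table without a feature, 0.653% to 0.784% ambiguous and 12.8% to 15.5% not unique) were left out. Counting without a stated strand leaves overlapping and antisense genes unseparated.

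Gene IDs were matched exactly to a symbol table. The test over the whole table was that of edgeR 4.0.16 under R 4.3.3 (normalization by TMM, filterByExpr, quasi-likelihood F-test, two-sided, Benjamini-Hochberg adjustment, threshold 0.05) with sex and drip as terms, or with their product, over 10093 features. CPM were scaled by TMM factors over all features. Folds are log2, with the SE of the fit. Pearson's r and Spearman's rho used log2 CPM with a prior count of 2 and 100000 permutations per pair. Alternatives were RLE size factors, scaling from non-member features, no filter, DESeq2 1.42.0, limma voom 3.58.1, no sex term, age or an ALB split at 10 CPM as a term, either sex alone, 9 animals, tables as recorded, each animal left out, and for r a prior count of 0.5 and residuals after sex and drip. The steps were tested on simulated data. There the drip test recovered 40.3% of 1.5-fold, 83.6% of 2-fold and 100% of 4-fold changes. These changes were placed in features drawn from the whole table, not in the members. Precision is limited by 6 animals a group.

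The members, lists and tests were chosen with earlier results of these data known. Named with values are all tested slow and fast forms, the 3 most abundant members of each class, the members with the smallest p (10 for drip, 5 for sex, 5 for the product) and the 5 other sarcomere genes with the smallest drip p. MYL11 and MYL5 were put in classes after the tables were read, and MYH3, NPPB, PYGM and ALB are named as context. Levels per kilobase were planned but not computed, as no gene length was at hand, and no sequence is printed.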

Additional observations from a re-analysis of the deposited data

Results flagged for a closer look

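In the 86 groups of 6 animals formed by the 43 tested members, 5 values stood apart from the other 5 animals of their group on the log2 scale, by a gap that exceeds the critical share of 0.625 of the group's range. Chance flags about 1 in 20 such groups, so about as many were to be expected. For CAPZB, high drip replicate 6 was at 199.6 CPM, with the other high drip animals at 235.9 to 259 CPM. For MYOM2, high drip replicate 6 was at 2144 CPM, with the other high drip animals at 2462 to 2637 CPM. For the same gene, low drip replicate 3 was at 3275 CPM, with the other low drip animals at 2247 to 2508 CPM. For ACTA1, low drip replicate 3 was at 90530 CPM, with the other low drip animals at 64250 to 72330 CPM. For CAPZA1, low drip replicate 3 was at 13.02 CPM, with the other low drip animals at 21.8 to 29.5 CPM. Low drip replicate 3 thus held 3 of the 5 values, and its table is recorded under its own number.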

How the results depend on the processing

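The count of members called stayed at 0 for drip, sex and their product under every alternative run, and so did the count of all features called for drip. The count of all features called for sex was 2 with DESeq2 and 1 with no filter. For the product it was 4 with DESeq2 and 1 with the ALB split as a term. Alternatives other than leaving out 1 animal gave 448 values of single genes, pairs, ratios and the median drip folds of slow and fast forms. Of these, 410 counted as unchanged. For genes, pairs and ratios that means the same direction and side of the threshold. For the medians it means a move smaller than the median SD of log2 CPM of the class, whatever the sign. The directions of small drip folds did not hold. In the 9 animals the log2 fold was -0.0498 for ATP2A1, -0.0250 for MYOZ1, -0.0501 for TNNC2 and -0.0557 for TPM1. With tables as recorded it was -0.0732 for ATP2A1, -0.0392 for ATP2A3, -0.0208 for MYBPC2, 0.0340 for MYBPH, 0.0123 for PDLIM4, -0.0466 for TNNC2 and -0.0856 for TPM1, and the product term of PDLIM4 was -0.00549. In females alone it was -0.0484 for ATP2A1, -0.276 for MYH7B, -0.000704 for MYL3, -0.192 for MYLK2, -0.138 for PDLIM1, -0.0670 for TNNC1 and -0.0983 for TNNT1. In males alone it was -0.0545 for MYL11, 0.00210 for MYOM2, -0.0508 for MYOZ1, 0.00617 for PDLIM4, -0.0817 for TNNC2 and -0.0607 for TPM1. With the ALB split as a term it was -0.00649 for MYL11, -0.114 for PDLIM1, -0.0154 for TNNC2 and -0.00368 for TPM1. With age as a term it was 0.00623 for MYOM2, and with limma voom -0.00188 for PDLIM1. After sex and drip were taken out, r of MYL1 and MYL3 was -0.147.

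Of the pairs of slow or fast forms, 4 passed in all 12 animals, 0 in the 9 animals and 0 when adjusted over all pairs of tested members, an alternative added after seeing the data. The count was 6 for residuals after sex and drip, of which 3 were shared: MYOZ1 with TNNC2 was lost (r = 0.777, adjusted permutation p = 0.0574), and MYH7B with MYL3, CASQ1 with TNNC1 and MYL1 with MYL11 were gained. It was 4 under RLE, non-member scaling and a prior count of 0.5. Leaving out 1 animal gave 0 to 4, with 4 only without low drip replicate 1, where TNNC1 with TNNT1 was lost and MYH7B with MYL3 gained, and 1 without high drip replicate 3 or 5. The r of the 4 pairs was 0.696 or above with any 1 animal left out. The cause was not tested.

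Leaving out 1 animal also turned the drip fold of ATP2A1 (-0.0514 to 0.150), MYBPH (-0.172 to 0.00979), MYL11 (-0.0245 to 0.134), MYOM2 (-0.0622 to 0.0650), MYOZ1 (-0.00963 to 0.0751), PDLIM1 (-0.229 to 0.181), TNNC1 (-0.0457 to 0.0900), TNNC2 (-0.0453 to 0.0481) and TPM1 (-0.0345 to 0.0539). It moved other folds by over 1.5 times with no change of sign, as for LMOD2 (-0.425 to -0.154), MYLK2 (0.0776 to 0.280), MYH3 (0.134 to 0.395), MYH7B (0.0716 to 0.542), TNNT1 (0.0156 to 0.197), MYBPC1 (-0.249 to -0.0693), MYBPC2 (0.0351 to 0.155), CASQ1 (0.0127 to 0.0967), MYL1 (0.0702 to 0.183), MYL3 (0.191 to 0.413), MYH15 (-0.832 to -0.369) and ATP2A3 (0.151 to 0.298). It turned the log2 difference of the TNNC1 to TNNC2 ratio (-0.0569 to 0.0677) and the r of MYBPC1 and MYBPC2 (-0.256 to 0.197) and of MYL1 and MYL3 (-0.00769 to 0.260). No paired analysis was run. Replicate numbers were given in accession order and the labels name no pairs, so whether animals were matched between the groups is not known.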
